A study of Homo sapiens with 6 samples.

Results

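Zinc transporters and metallothioneins were examined in ACHN cells, an established human renal cancer cell line, in which OTUD1 was knocked down by a small interfering RNA (siRNA). The set is defined by gene symbol, and it was chosen with earlier results of these data known. It takes every row of the count table named SLC30A or SLC39A with a number, MT1 or MT2 with a letter, or MTF1, which gave 35 of 58735 rows: 10 metallothioneins, 10 SLC30 genes, 14 SLC39 genes and MTF1. Of these, 25 had enough counts to be tested and 10 did not.

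The study compared 3 libraries transfected with control siRNA (titled NC) and 3 transfected with OTUD1 siRNA (titled si01), all grown in minimum essential medium with 10% serum. OTUD1 encodes a deubiquitinase, an enzyme that removes ubiquitin from proteins. All 3 knockdown libraries carry the same siRNA name. The time after transfection, the siRNA sequences and whether libraries are separate cultures were not given in the sources used here. The spread behind each p-value is thus that between these libraries and may be only technical. In bulk RNA such as this, fewer cells of a type and less RNA per cell cannot be told apart.

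Zinc enters the cytosol through SLC39 (ZIP) proteins, from outside the cell or from organelles, and leaves it through SLC30 (ZnT) proteins, which export it or load it into vesicles, the Golgi and mitochondria. Metallothioneins are small cysteine-rich proteins that bind zinc, copper and cadmium in the cytosol. MTF1 is the zinc-sensing transcription factor. When free zinc rises it binds metal response elements and induces metallothionein genes and the exporter gene SLC30A1. In the kidney, tubule cells hold much metallothionein, which also binds cadmium there.

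The 10 metallothionein genes lie within 76 kb of hg38 chromosome 16, from 56608199 to 56684196, and all but MT1G are on the plus strand. Since 5 of its 6 tested members fell, promoters of the cluster are shown. RefSeq promoter windows (GRCh38.p14) were found for 26 of the 35 members, with 35 windows in all because some genes have several starts. None was found for MT1A, MT1E, MT1F, MT1G, MT1L, MT1M, SLC30A8, SLC39A4 and SLC39A14. The core of the metal response element was searched as TGCACNC or TGCGCNC on both strands of the 250 bases before the start, counting overlapping matches separately. The windows below are those of MT2A and MT1X, which fell, of MT1B and MT1H, which had no counts, and of SLC30A1, an MTF1 target outside the cluster. All are written 5′ to 3′ along the gene, with matches in capitals, and end at the RefSeq start, which can differ from the GENCODE gene bounds given below.
MT2A (chr16:56608334-56608583, plus strand): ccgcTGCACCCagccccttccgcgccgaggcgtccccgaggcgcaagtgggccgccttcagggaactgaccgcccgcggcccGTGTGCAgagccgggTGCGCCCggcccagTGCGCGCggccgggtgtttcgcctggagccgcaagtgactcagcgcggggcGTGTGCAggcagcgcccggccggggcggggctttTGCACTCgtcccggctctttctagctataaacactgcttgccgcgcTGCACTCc
MT1X (chr16:56682220-56682469, plus strand): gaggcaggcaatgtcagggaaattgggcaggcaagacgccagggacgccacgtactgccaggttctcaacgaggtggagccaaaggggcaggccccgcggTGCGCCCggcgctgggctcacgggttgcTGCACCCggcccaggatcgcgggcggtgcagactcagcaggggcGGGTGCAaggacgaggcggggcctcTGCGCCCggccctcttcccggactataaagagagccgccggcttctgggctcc
MT1H (chr16:56669564-56669813, plus strand): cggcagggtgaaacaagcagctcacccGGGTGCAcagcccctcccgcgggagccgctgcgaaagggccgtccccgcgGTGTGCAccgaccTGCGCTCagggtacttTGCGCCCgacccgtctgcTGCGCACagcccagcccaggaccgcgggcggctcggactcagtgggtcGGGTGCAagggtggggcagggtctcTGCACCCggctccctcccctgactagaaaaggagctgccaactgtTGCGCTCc
MT1B (chr16:56651636-56651885, plus strand): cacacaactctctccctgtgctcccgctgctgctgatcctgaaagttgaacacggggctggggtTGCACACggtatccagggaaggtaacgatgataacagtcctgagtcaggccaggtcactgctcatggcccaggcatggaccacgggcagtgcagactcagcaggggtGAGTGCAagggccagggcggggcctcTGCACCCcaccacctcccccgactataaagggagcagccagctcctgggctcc
SLC30A1 (chr1:211579162-211579411, minus strand): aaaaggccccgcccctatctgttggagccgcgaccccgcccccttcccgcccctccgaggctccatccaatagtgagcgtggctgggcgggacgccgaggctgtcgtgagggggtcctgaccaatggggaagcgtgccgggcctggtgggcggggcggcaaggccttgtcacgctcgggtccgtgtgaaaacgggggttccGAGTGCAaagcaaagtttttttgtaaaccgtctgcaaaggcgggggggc
MT2A held 7 matches, MT1X 4, MT1H 8 and MT1B 3, and SLC30A1 held 1, which lies 43 to 49 bases before the start. Over all 35116 promoter windows, 24.8% held at least 1 match, 1.58% at least 3 and 0.12% at least 5. At least 1 match stood in 6 of 11 SLC30 windows and 5 of 19 SLC39 windows, and none in that of MTF1. A match describes letters and does not show a site in use: MT1H and MT1B carry matches and had no counts in any library.

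Total counts ran from 16753495 to 18993534 in the control libraries and from 17243433 to 21013530 in the OTUD1 siRNA libraries. OTUD1 itself had 61 to 67 counts per control library and 17 to 28 per OTUD1 siRNA library, 3.22-fold lower (edgeR adjusted p = 4.37e-07). Levels below are CPM, read counts scaled to a common library size, relative to library sizes scaled by TMM, a method that matches the bulk of genes between libraries. Log2 fold changes compare OTUD1 siRNA with control siRNA and carry a standard error (SE), and a gene is called at an adjusted p of at most 0.05 over all 15244 genes tested (edgeR quasi-likelihood test, Benjamini-Hochberg). As a background, 60.4% of all genes tested were called, 29.3% higher and 31.1% lower. In 64.5% of genes tested the libraries of the groups did not overlap, with the OTUD1 siRNA libraries higher in 31.5% and lower in 33%.

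Markers of the labelled cell type were checked too. Of 12 renal epithelial markers 10 were tested. Of these, 3 were called higher (30%, against 29.3% of all genes) and 6 lower (60%, against 31.1%). The summed level of the list was 6897 to 7164 CPM in the control libraries and 3747 to 3870 CPM in the OTUD1 siRNA libraries. KRT8, KRT18 and PAX8 were present and fell, and KRT19 and GGT1 rose, while LRP2 had no counts. The summed leukocyte list (9 genes) was at 1.75 to 1.93 and 1.44 to 2.11 CPM, with PTPRC, CD3E and LYZ at 0 and CD8A called higher (9 counts in all control libraries, 39 after OTUD1 siRNA). The endothelial list (6 genes) was at 0.438 to 0.934 and 0.596 to 1.09 CPM, with KDR at 0 and none tested. The fibroblast list (7 genes) was at 7.71 to 10.3 and 12.1 to 14.6 CPM, and PDGFRB was called higher. The renal and fibroblast sums moved with the groups, and their part in the results below was not tested.

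Metallothionein mRNA was lower after OTUD1 siRNA. Of 10 metallothionein genes 6 were tested. Among these, 5 were called lower (83.3%, against 31.1% of all genes) and 0 higher (0%, against 29.3%). Their median log2 fold change was -0.98, against 0.01 over all genes tested. All 6 had log2 fold changes of -0.48 or lower, so the 0 higher in edgeR at an unadjusted p under 0.05 follows from their direction. DESeq2 and limma, run on the same libraries, also called 0 higher. Summed over all 10 genes, metallothioneins made up 0.343%, 0.385% and 0.367% of the counts in the control libraries and 0.192%, 0.203% and 0.216% in the OTUD1 siRNA libraries. These shares are of the unscaled totals and do not change with how reads were divided among the 10 genes, and the groups did not overlap. On the CPM scale the sum went from 3819 ± 216 to 1950 ± 115 (SD, n = 3), 1.96-fold lower.

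MT2A (ENSG00000125148.6, hg38 chromosome 16, 56608199 to 56609497), the main metallothionein of most human cells, was at 2738, 3101 and 2924 CPM in control replicates 1 to 3 and at 1532, 1623 and 1745 CPM in OTUD1 siRNA replicates 1 to 3. Every OTUD1 siRNA library lay below every control library. The log2 fold change was -0.84 (SE 0.037, adjusted p = 1.05e-17 in edgeR), or 1.79-fold lower. MT1E (ENSG00000169715.14, 56625475 to 56627112), the next most abundant, went from 723, 794 and 783 CPM to 245, 257 and 263 CPM. MT1E fell 3.01-fold (log2 fold change -1.59 ± 0.035 SE, adjusted p = 1.14e-24 in edgeR), again with no overlap. MT1M was at 93.9, 96.7 and 100.02 CPM in the control libraries and at 48.3, 47.8 and 47.8 CPM after OTUD1 siRNA. It fell 2.02-fold (log2 fold change -1.01 ± 0.047 SE, adjusted p = 4.34e-17 in edgeR), and its OTUD1 siRNA libraries differed among themselves by less than 1 CPM.

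MT1X and MT1F were less abundant, with 270 to 324 and 249 to 280 counts per control library. MT1X was at 20.3, 14.9 and 17.4 CPM in the control libraries and at 5.33, 4.82 and 4.33 CPM after OTUD1 siRNA. The fall of 3.6-fold was the steepest among the members tested (log2 fold change -1.85 ± 0.12 SE, adjusted p = 2.07e-13 in edgeR). MT1F went from 15.6, 15.4 and 15.5 CPM to 8.21, 8.19 and 7.83 CPM, 1.92-fold lower (log2 fold change -0.94 ± 0.1 SE, adjusted p = 3.23e-09 in edgeR). In both genes all OTUD1 siRNA libraries lay below all control libraries.

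MT1A was near the limit of detection, with 13, 15 and 9 counts in the control libraries and 17, 3 and 11 in the OTUD1 siRNA libraries. These are 0.814, 0.826 and 0.526 CPM against 0.775, 0.149 and 0.611 CPM, and the groups overlap. It did not pass the test (log2 fold change -0.48 ± 0.46 SE, adjusted p = 0.381 in edgeR), and its ratio of OTUD1 siRNA to control was 0.715 with an exact 95% interval of 0.429 to 1.18, which covers counting error only. MT1L, a transcribed pseudogene, had 7 counts in each group. MT1G had 1 count in all, in a control library. MT1B and MT1H had 0 in every library, which allows up to 0.137 to 0.188 CPM per library at 3 counts.

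**Figure D1:**
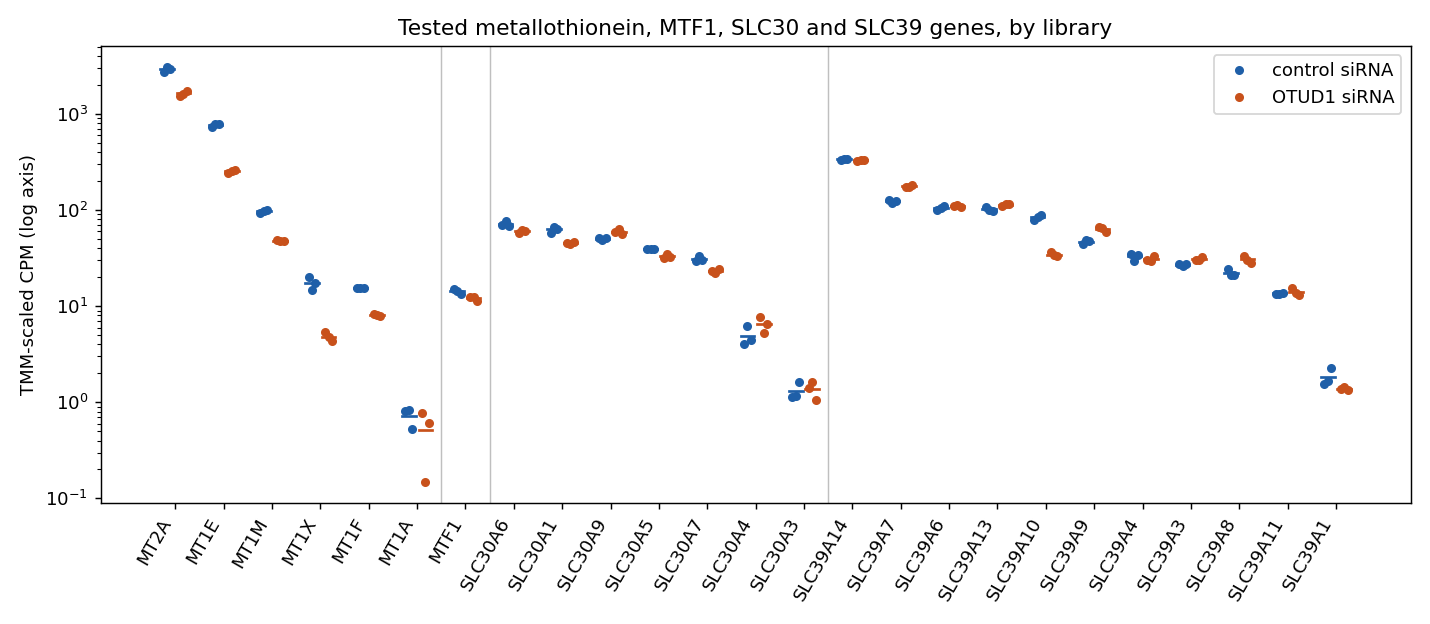
TMM-scaled CPM (log axis) of the 25 tested members in each library, ordered by family and control level. Points are libraries (control siRNA blue, OTUD1 siRNA orange, n = 3 each) and bars are means. All orange points lie below the blue ones in 13 members, among them 5 of 6 metallothioneins and SLC39A10, and above them in 6. Over all genes tested this held in 33% and 31.5%.

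Whether metallothioneins fell by the same factor was asked from ratios of counts within a library, which are free of scaling. In all 5 pairs of members were compared, chosen after their values were seen. Per 100 MT2A counts there were 26.4, 25.6 and 26.8 MT1E counts in the control libraries and 16.01, 15.8 and 15.1 in the OTUD1 siRNA libraries, a difference of -0.75 on the log2 scale. MT1X stood at 0.741, 0.479 and 0.595 per 100 MT2A counts in the control libraries and at 0.348, 0.297 and 0.248 after OTUD1 siRNA, a log2 difference of -1.01. Neither ratio overlapped between groups (exact permutation p = 0.1, two-sided, the smallest that 3 against 3 allow, adjusted p = 0.167 over the 5 pairs). The log2 difference was -0.18 for MT1M (exact permutation p = 0.2) and -0.10 for MT1F (exact permutation p = 0.5), and both ratios overlapped. MT2A took 76.1 to 77.1% of metallothionein counts in the control libraries and 83.3 to 84.4% in the OTUD1 siRNA libraries.

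**Figure D2:**
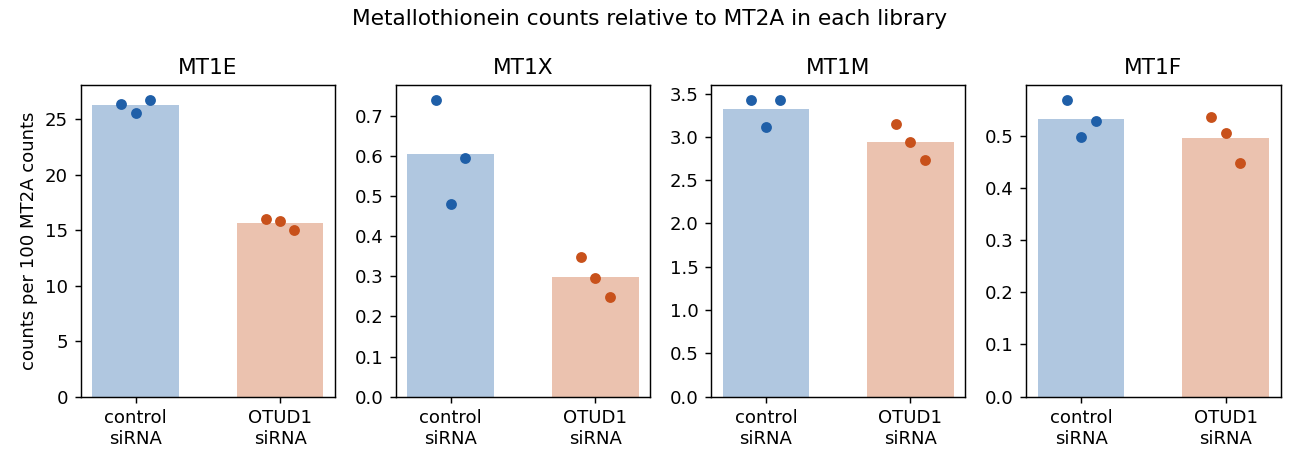
Counts of MT1E, MT1X, MT1M and MT1F per 100 MT2A counts, with each library as a point and the group mean as a bar (n = 3 per group, linear axes from 0). The groups separate for MT1E (25.6 to 26.8 against 15.1 to 16.01) and MT1X, and overlap for MT1M and MT1F.

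Paralogs of this family are similar enough to share reads, and the authors' handling of such reads was not given in the sources used here. As a measure of this, each 50-base window of a gene's principal GENCODE 29 transcript was searched in the transcripts of all other metallothionein genes and pseudogenes. Windows found elsewhere made up 4.88% for MT2A, 5.34% for MT1E, 7.05% for MT1M, 3.59% for MT1F and 5.76% for MT1A. They made up 16% for MT1X, 20.2% for MT1G and 20.4% for MT1H, and none for MT1B. The values of MT1X, MT1G and MT1H are the more uncertain for it. MT1X also shares 18.1% of its exonic bases with AC026461.1, a gene on the same strand with no counts. The MT2A pseudogene MT2P1 was called lower too (2.52 to 1.43 CPM; edgeR adjusted p = 0.0124, log2 fold change -0.80), but not without control replicate 1 (adjusted p = 0.0652), control replicate 3 (0.0567) or OTUD1 siRNA replicate 3 (0.0613).

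The other tested protein-coding genes within 500 kb of the cluster changed less than the 5 called metallothioneins, though not less than MT1A (-0.48, SE 0.46) in every case. Of 9 such neighbours, 5 were called lower, 0 higher, and 4 were not called, with log2 fold changes from -0.49 to 0.07. Over all genes 31.1% were called lower and 29.3% higher. The called neighbours thus all moved in the same direction as the called metallothioneins. The nearest above the cluster, the nucleoporin gene NUP93, 45.9 kb away, had a log2 fold change of -0.42 (SE 0.041). The nearest below it, the ciliary gene BBS2, 87.9 kb away, was not called (0.07, SE 0.054). All 5 called metallothioneins had log2 fold changes below the lowest of these neighbours, HERPUD1 (-0.49).

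**Figure D3:**
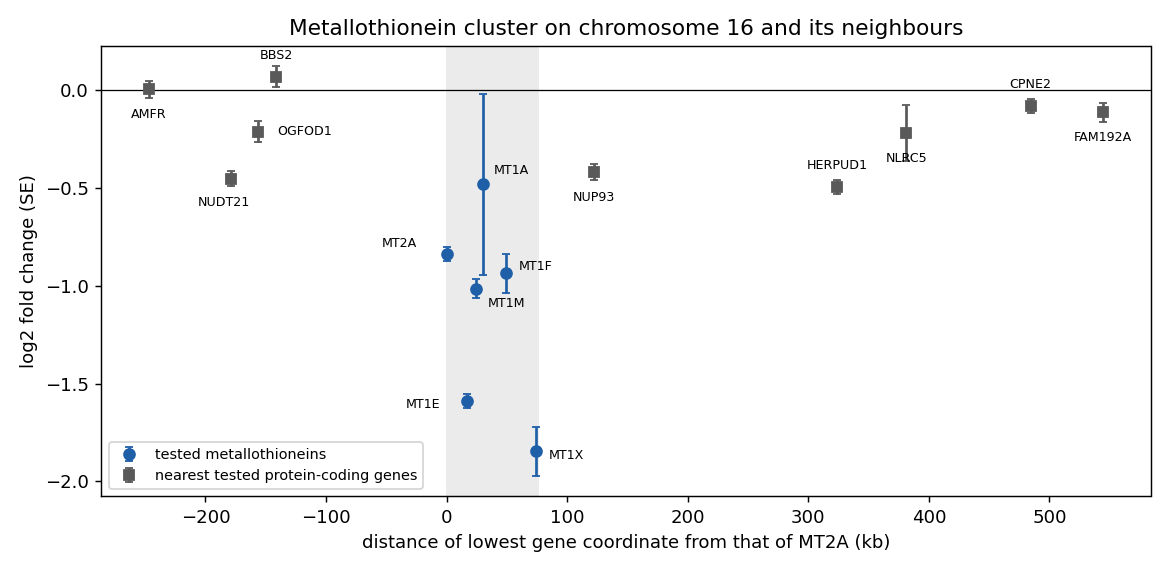
Log2 fold change with SE of the tested metallothioneins (blue) and of the tested protein-coding genes within 500 kb (grey squares) against distance in kb from the lowest coordinate of MT2A; shading marks the cluster. MT1X and MT1E lie lowest at -1.85 and -1.59, while the neighbours lie between -0.49 and 0.07.

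MTF1 (ENSG00000188786.9, hg38 chromosome 1, 37809567 to 37859620, minus strand) was at 15.2, 14.4 and 13.5 CPM in the control libraries and at 12.5, 12.6 and 11.4 CPM in the OTUD1 siRNA libraries. All OTUD1 siRNA values were lower than all control values. The call is a narrow one (log2 fold change -0.24 ± 0.097 SE, adjusted p = 0.0334 in edgeR) and was lost in 6 of 14 alternatives, among them DESeq2 (adjusted p = 0.0847), a minimum mean of 5 CPM (0.0801) and library totals (log2 fold change -0.11, adjusted p = 0.327). It was also lost without control replicate 1 (adjusted p = 0.105), control replicate 2 (0.0661) or OTUD1 siRNA replicate 3 (0.125).

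SLC30 genes moved in both directions. Of 10 members 7 were tested, 4 were called lower (57.1%, against 31.1% of all genes) and 2 higher (28.6%, against 29.3%), with a median log2 fold change of -0.24. With library totals 2 were called lower and 2 higher. SLC30A1 (ENSG00000170385.9, hg38 chromosome 1, 211571568 to 211578742, minus strand), which exports zinc across the plasma membrane and is induced by MTF1, was at 57.9, 67.2 and 63.9 CPM in the control libraries and at 45.2, 43.9 and 46.7 CPM in the OTUD1 siRNA libraries. It fell 1.4-fold without overlap (log2 fold change -0.48 ± 0.057 SE, adjusted p = 2.4e-08 in edgeR), and remained called in all 14 alternatives.

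SLC30A5, SLC30A6 and SLC30A7 load zinc into the early secretory pathway, SLC30A5 and SLC30A6 as a heterodimer. SLC30A7 went from 29.4, 33.0 and 29.95 CPM to 23.2, 22.1 and 24.4 CPM (log2 fold change -0.41 ± 0.072 SE, adjusted p = 1.75e-05 in edgeR). SLC30A5 went from 39.7, 39.5 and 39.2 CPM to 31.8, 34.5 and 32.3 CPM (log2 fold change -0.26 ± 0.061 SE, adjusted p = 0.000444 in edgeR). SLC30A6 went from 69.8, 76.8 and 67.5 CPM to 58.2, 62.4 and 60.8 CPM (log2 fold change -0.24 ± 0.053 SE, adjusted p = 0.000245 in edgeR). The heterodimer partners thus fell by similar amounts, 1.2-fold and 1.18-fold, and in all 3 genes the groups did not overlap. When libraries were scaled by their totals alone, SLC30A5 (log2 fold change -0.13, adjusted p = 0.055) and SLC30A6 (-0.11, adjusted p = 0.0634) were no longer called.

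The SLC30 genes called higher were SLC30A9 and SLC30A4. SLC30A9, the mitochondrial member, went from 51.1, 48.8 and 51.7 CPM to 59.0, 63.8 and 56.3 CPM with no overlap (log2 fold change 0.24 ± 0.055 SE, adjusted p = 0.000377 in edgeR). SLC30A4, an endosomal member, was at 4.01, 6.17 and 4.5 CPM in the control libraries and at 7.75, 5.26 and 6.56 CPM after OTUD1 siRNA. Control replicate 2 lay above OTUD1 siRNA replicate 2, so the groups overlapped although the test passed (log2 fold change 0.41 ± 0.17 SE, adjusted p = 0.0336 in edgeR). The call was lost with DESeq2 (adjusted p = 0.0709), after quantile normalization (0.14) and without control replicate 1 (0.16), control replicate 3 (0.108), or without replicate 1 (0.251) or 3 (0.0583) of OTUD1 siRNA. SLC30A3, known from synaptic vesicles, had 18 to 33 counts per library and did not pass (log2 fold change 0.07 ± 0.3 SE, adjusted p = 0.846 in edgeR). SLC30A2 and SLC30A8, a gene of pancreatic beta cells, had no counts, and the manganese exporter gene SLC30A10 had 2, in OTUD1 siRNA libraries.

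The SLC39 genes split between several modest increases and a single larger decrease. Of 14 members 11 were tested. Of these, 5 were called higher (45.5%, against 29.3% of all genes) and 1 lower (9.09%, against 31.1%), with a median log2 fold change of 0.07. The decrease was in SLC39A10 (ENSG00000196950.13, hg38 chromosome 2, 195575977 to 195737702, plus strand), a plasma membrane zinc importer. It went from 79.3, 84.4 and 88.1 CPM to 36.7, 33.9 and 32.9 CPM, 2.43-fold lower (log2 fold change -1.28 ± 0.056 SE, adjusted p = 9.18e-18 in edgeR), and remained called in all 14 alternatives.

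SLC39A6 is the closest relative of SLC39A10, and the pair form a heteromer. It was at 101, 105 and 109.8 CPM in the control libraries and at 111, 112 and 108.1 CPM in the OTUD1 siRNA libraries, with overlap, and did not pass (log2 fold change 0.07 ± 0.042 SE, adjusted p = 0.158 in edgeR). It was called higher with library totals (0.20, adjusted p = 0.000165), after quantile normalization (0.18, adjusted p = 0.00109) and among genes averaging 5 CPM or more (0.12, adjusted p = 0.0158). For every 100 SLC39A10 counts there were 127, 124 and 125 SLC39A6 counts in the control libraries and 303, 330 and 329 in the OTUD1 siRNA libraries. This log2 difference of 1.35 did not overlap between groups (exact permutation p = 0.1, the smallest possible here, adjusted p = 0.167).

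SLC39A7, SLC39A9 and SLC39A13 release zinc from the endoplasmic reticulum, Golgi or vesicles into the cytosol, and all 3 rose. SLC39A7 went from 128, 118 and 124 CPM to 175, 172 and 181 CPM, 1.43-fold higher (log2 fold change 0.51 ± 0.039 SE, adjusted p = 3.17e-12 in edgeR). SLC39A9 went from 44.1, 48.95 and 47.9 CPM to 66.9, 65.6 and 58.5 CPM, 1.36-fold higher (log2 fold change 0.44 ± 0.058 SE, adjusted p = 1.6e-07 in edgeR). SLC39A13 went from 107.6, 99.2 and 97.5 CPM to 111, 116 and 115 CPM, 1.12-fold higher (log2 fold change 0.17 ± 0.043 SE, adjusted p = 0.0014 in edgeR). Groups did not overlap in any of them, and all 3 remained called higher in all 14 alternatives.

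Since the strand setting of the counting is not given, genes that overlap on opposite strands carry uncertain counts. RXRB lies opposite SLC39A7 and shares 244 exonic bases with it (8.58% of SLC39A7 exons). RXRB was itself called higher, from 39.5 ± 2.83 to 50.2 ± 1.39 CPM (log2 fold change 0.35, SE 0.06). ERH lies opposite SLC39A9, shares 373 exonic bases with it and was called lower (log2 fold change -0.17, SE 0.04). SLC39A8 shares 197 exonic bases with AC098487.1, a non-coding gene on the same strand, and SLC30A5 shares 532 (9.2% of its exons) with the antisense gene AC010273.1. The part of these overlaps in the members' values was not tested.

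Among the plasma membrane importers, SLC39A8, a carrier of zinc and manganese, was at 24.5, 20.9 and 21.3 CPM in the control libraries and at 33.3, 30.4 and 28.4 CPM in the OTUD1 siRNA libraries. It rose 1.39-fold with no overlap (log2 fold change 0.47 ± 0.077 SE, adjusted p = 5.72e-06 in edgeR). SLC39A3 went from 27.4, 25.9 and 27.7 CPM to 30.2, 29.9 and 32.2 CPM (log2 fold change 0.19 ± 0.067 SE, adjusted p = 0.0182 in edgeR). This small change did not overlap between groups, but its call was lost without control replicate 2 (adjusted p = 0.0709) or OTUD1 siRNA replicate 3 (0.0849).

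The remaining importers did not pass the test. SLC39A14, a carrier of zinc, iron and manganese that is induced by interleukin-6 (IL-6) and the transporter with the highest CPM of the set, averaged 337 ± 4.95 CPM with control siRNA and 328 ± 2.17 CPM with OTUD1 siRNA (SD, n = 3). The log2 fold change of -0.04 (SE 0.03) did not pass (edgeR adjusted p = 0.295) although every OTUD1 siRNA library lay below every control library, with control replicate 1 (331 CPM) and OTUD1 siRNA replicate 2 (330.3 CPM) the closest. The direction depends on scaling, and it was called higher with library totals (0.09, adjusted p = 0.0106) and after quantile normalization (0.14, adjusted p = 0.000213). SLC39A4, the importer mutated in acrodermatitis enteropathica, had a log2 fold change of -0.08 (SE 0.07) that turned to 0.05 with library totals, and SLC39A11 one of 0.04 (SE 0.096). SLC39A1 had only 24 to 39 counts per library and did not pass (log2 fold change -0.41 ± 0.28 SE, adjusted p = 0.209 in edgeR). In GENCODE 29, 60.8% of its exonic bases also belong to AL358472.7, a gene on the same strand with no counts here, and the counting of reads in that stretch was not given. SLC39A5 had 6 counts in all control libraries and 12 after OTUD1 siRNA, and SLC39A2 and SLC39A12 had none.

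**Figure D4:**
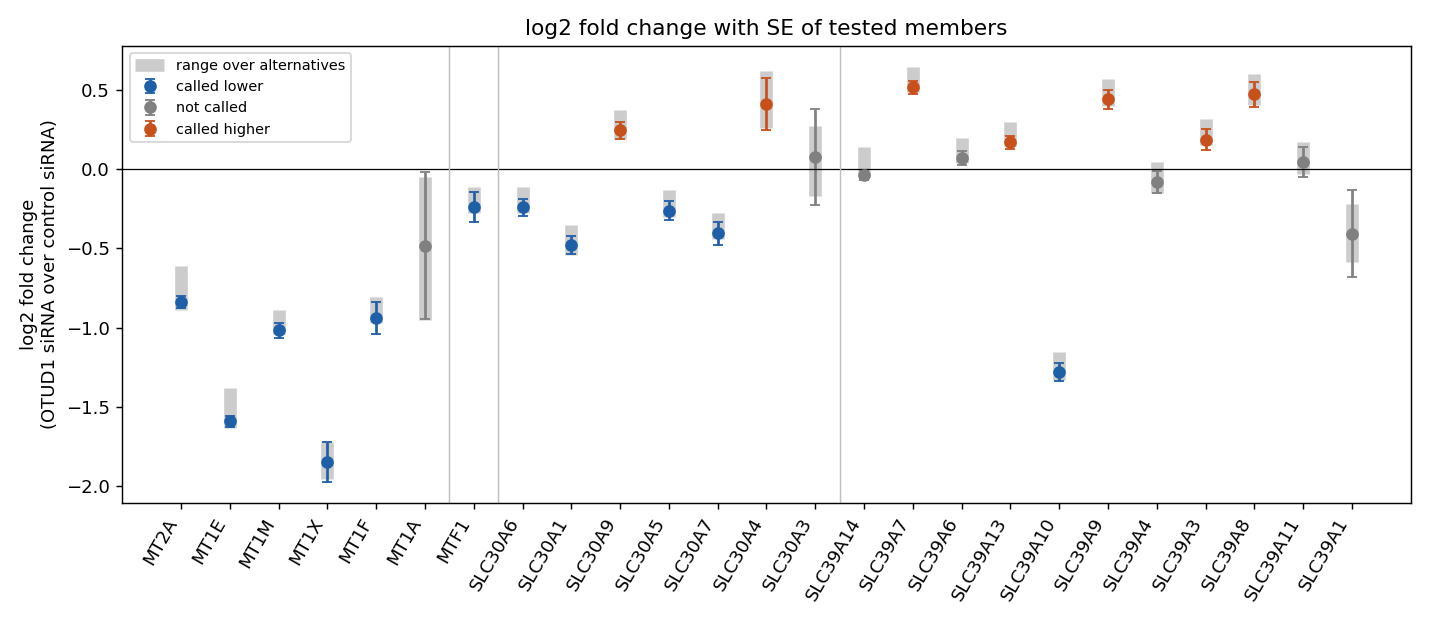
Log2 fold change (OTUD1 siRNA over control siRNA, points) with SE (bars) of the 25 tested members, coloured by call; grey boxes span the values over the 13 or 14 alternatives that tested each gene. Called changes run from -1.85 in MT1X to 0.51 in SLC39A7, and the boxes of SLC39A14, SLC39A4, SLC39A11 and SLC30A3 cross 0.

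In all, 7 of 25 tested members were called higher (28%) and 11 lower (44%), beside 29.3% and 31.1% of all genes. With library totals the split was 9 higher and 8 lower, where over all genes the share of called genes that were higher moved from 48.4% to 64.2% and the log2 fold changes shifted by a median of 0.13. Groups did not overlap in 6 of the 25 that were higher and 13 that were lower, beside 31.5% and 33% of all genes tested. Among the 13, SLC39A1 and SLC39A14 had no call.

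Levels of different genes were compared as CPM per kilobase of merged exons. In the control libraries the highest were MT2A at 2249 ± 140, MT1E at 729 ± 36.0 and MT1M at 103 ± 3.27 (SD, n = 3). SLC39A14 (48.5 ± 0.713), SLC39A7 (43.3 ± 1.9), SLC39A6 (28.6 ± 1.22) and SLC39A13 (22.1 ± 1.18) were the highest transporters, followed by SLC30A6 (13.2 ± 0.896), SLC39A10 (12.1 ± 0.636) and SLC30A1 (11.5 ± 0.866), which differed from their neighbours by about their SDs. MTF1 stood at 1.79 ± 0.104 per kilobase. After OTUD1 siRNA, SLC39A7 (61.8 ± 1.63) stood above SLC39A14 (47.3 ± 0.313), and SLC39A10 stood at 4.99 ± 0.281, below SLC30A1 (8.27 ± 0.249) and SLC30A9 (8.27 ± 0.528). Merged exons include long minor transcripts: with the principal transcript alone, MT1X was at 38.9 in place of 9.88 per kilobase in the control libraries and MT1F at 22.5 in place of 8.2. The order of transporters changes too. On that length SLC39A13 (44.3) stood above SLC39A6 (29.7), and SLC39A3 (18.0 in place of 5.94) above SLC39A10 (15.45), SLC30A6 (14.03) and SLC30A1 (11.5).

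Other metal-handling genes were counted by list, to be read beside the 29.3% of all genes called higher and 31.1% lower. The lists were written with earlier results of these data known. Of 12 copper-handling genes tested, 4 were called higher and 2 lower (median log2 fold change 0.07). CUTA rose 1.43-fold and the copper chaperone gene COX17 1.27-fold, while the copper importer gene SLC31A1 fell 1.46-fold and the superoxide dismutase gene SOD1, whose protein binds copper and zinc, 1.16-fold. Of 17 transporters and regulators of other divalent metals, 4 rose and 6 fell (median -0.10), shares of 23.5% and 35.3% that lie near those of all genes (29.3% and 31.1%). CNNM1 fell 2.2-fold, CNNM3 1.38-fold and ATP2C1, a calcium and manganese pump of the Golgi, 1.19-fold. The iron exporter gene SLC40A1 rose 1.31-fold, and SLC11A1 went from 0.25 to 0.94 CPM.

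Of 16 metal-dependent enzymes of the secretory pathway and cell surface, most of them zinc enzymes, 4 rose and 8 fell (median -0.27). These are 25% and 50%, against 29.3% and 31.1% of all genes. Without LOX and LOXL2, lysyl oxidase genes whose proteins use copper at the active site, 4 of 14 rose and 6 fell (median -0.25). The protease genes MMP1 and ADAM10 fell 1.57-fold and 1.46-fold, LOXL2 1.45-fold and LOX 1.21-fold. MME, the neprilysin gene, went from 1.38 to 2.66 CPM and MMP7 from 0.22 to 0.709 CPM, both called higher. Of 7 other zinc genes, 3 fell (42.9%) and 1 rose (14.3%), with a median of -0.20. CBWD1 and CBWD2, near-identical copies related to zinc metallochaperones whose reads may be shared, fell 1.38-fold and 1.27-fold, and ZNF658 rose 1.87-fold. MT3 had 5 counts over all libraries and MT4 none.

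Metallothioneins are also induced by heavy metals, oxidants, glucocorticoids and IL-6, so genes known for those responses were counted. These lists too were written with earlier results of these data known, so their shares are descriptions and not independent support. Of 15 heavy metal and proteotoxic stress genes, 13 fell (86.7%, against 31.1% of all genes) and 1 rose (6.7%, against 29.3%). Their median log2 fold change was -0.84, against 0.01 over all genes. The heme oxygenase gene HMOX1 fell 2.04-fold, the glutathione synthesis gene GCLM 2.13-fold, the heat shock gene HSPH1 2.02-fold and the thioredoxin reductase gene TXNRD1 1.78-fold. CRYAB, a small heat shock protein gene, rose from 1.24 to 2.23 CPM, a call lost without OTUD1 siRNA replicate 3 (adjusted p = 0.0858). Of 11 glucocorticoid-inducible genes, 8 fell (72.7%) and 2 rose (18.2%), with a median of -0.51. ANGPTL4 fell 2.81-fold, ERRFI1 2.02-fold and DUSP1 1.5-fold, whereas SGK1 rose 1.5-fold and FKBP5 1.1-fold. The FKBP5 call was lost without control replicate 1 (adjusted p = 0.0881) or 3 (0.0694) and without replicate 2 (0.0861) or 3 (0.0588) of OTUD1 siRNA.

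Of 18 IL-6 signalling and acute phase genes listed, 12 were tested, of which 6 rose and 6 fell (50% each, median 0.08). The acute phase genes FGA, FGB, FGG, SERPINA3, LBP and HP had too few counts to be tested. All 12 were thus called, against 60.4% of all genes (29.3% higher and 31.1% lower). With a minimum mean of 5 CPM, the shares over all genes were 35.2% higher and 35.3% lower. The IL-6 receptor gene IL6R rose 3.04-fold and the transcription factor gene CEBPD 1.82-fold, while IL6 fell 1.4-fold and IL6ST, the shared signalling subunit, 1.59-fold. These lists share inducers with the metallothioneins, and whether the same signal moved both was not tested.

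**Figure D5:**
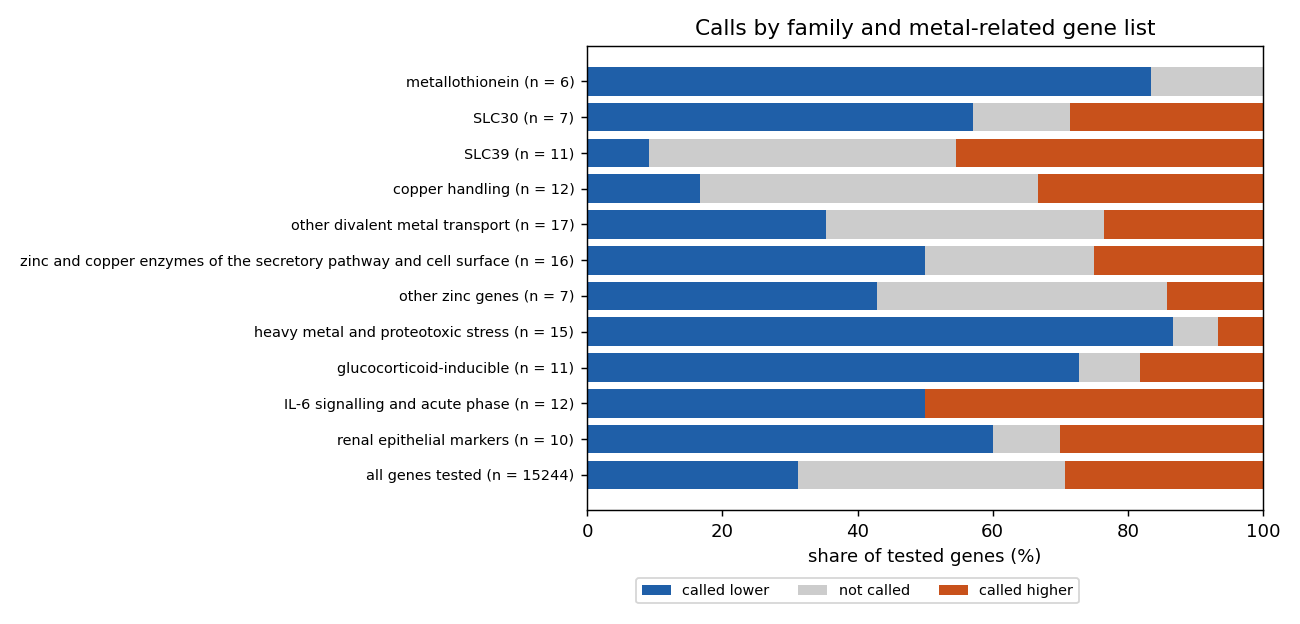
Share of tested genes called lower (blue), not called (grey) and called higher (orange), with the number tested in parentheses. Rows are the 3 families, the metal-related lists (the enzyme list holds 2 copper enzymes), the glucocorticoid and IL-6 lists, the renal markers and all genes. Metallothioneins (5 of 6) and heavy metal stress genes (13 of 15) hold the greatest shares called lower, against 31.1% of all genes. Families and lists were chosen with earlier results of these data known.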

How the data were processed

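RNA-seq of 6 ACHN libraries was analysed. Trizol RNA (1.3 ug) went into a directional library kit, per the labels' protocols. The submitters' processing notes name hg38. Aligner, counter, strand setting and annotation were not given in the sources used here. The deposited table holds whole-number counts per gene symbol, although its name speaks of FPKM, and the totals differ between libraries.

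Genes were kept by filterByExpr (10 counts at the median library size, 15 in all), scaled by TMM and compared with edgeR 4.0.16 (glmQLFit, glmQLFTest, R 4.3.3). DESeq2 1.42.0, limma 3.58.1, other scalings and filters, a replicate block and each library left out were alternatives. Of 58735 rows 30560 held no count. The chi-square per gene averaged 2.07 to 3.81 between libraries of a group, above the 1 of sampling noise, and 47.9 to 57.2 between groups. On simulated counts for this comparison (15036 genes) the fit recovered 76.5% of the genes given a log2 change of 0.5 and 91.8% where it was 1. It made 1 false call. Only 98 genes were changed at each size, rises and falls were drawn in equal number, and all genes had the same dispersion. In the data 60.4% of genes were called, so the simulation does not show how scaling and test behave under so broad a change.

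The members and gene lists were chosen with earlier results of these data known. Every library's value is given for MTF1, tested metallothioneins and called transporters. From each list come up to 4 called genes, lowest adjusted p first, and up to 2 that moved against most of it. Coordinates, lengths and overlaps come from GENCODE 29 (hg38), and promoters from RefSeq. Intervals cover counting error only.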

Additional observations from a re-analysis of the deposited data

How the results depend on the processing

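Over 347 pairs of a tested member and an alternative, direction and call held in 318, a call was lost in 16 and gained in 4 with the direction kept, and the direction turned in 9, with a call gained in 2 of these (SLC39A14). MT2A, MT1E, MT1M, MT1X, MT1F, SLC30A1, SLC30A7, SLC30A9, SLC39A7, SLC39A8, SLC39A9, SLC39A10 and SLC39A13 kept both in all 14 alternatives. Counting by family was added after the data were seen. After quantile normalization 2 SLC39 genes were called lower (SLC39A1 joined) and 1 SLC30 gene higher. With DESeq2 1 SLC30 gene was called higher, and leaving out a library gave 1 to 2. With library totals 2 SLC30 genes were called lower. Directions turned for genes without a call: SLC39A14 (0.091 with library totals, 0.14 after quantile normalization, 0.010 with a minimum mean of 5 CPM), SLC39A4 (0.045 with library totals) and SLC30A3 (-0.17 after quantile normalization, -0.070 to 0.27 with a library left out, below 0 without control replicate 1, control replicate 2 or OTUD1 siRNA replicate 2). SLC39A11 ran from -0.030, without OTUD1 siRNA replicate 1, to 0.091 with a library left out. Outside the members, SOD1, LOX, MMP7 and CRYAB lost their calls after quantile normalization, and FKBP5 without a filter on low counts. The causes were not tested. With the replicate number as a block, 7 members were called higher and 11 lower, as without it; same-numbered libraries deviated with correlations of -0.0155, 0.0334 and -0.0128, so the numbers were not taken as pairs. MT1A, SLC39A1 and SLC30A3 had 3 to 39 counts per library, and depth limits their precision.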
